A study of Danio rerio with 15 samples.

Results

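Prolactin (prl) and 6 other hormone genes of the zebrafish anterior pituitary were examined in whole embryos exposed to short-chain per- and polyfluoroalkyl substances (PFAS). The genes were growth hormone (gh1), proopiomelanocortin a (pomca), the thyrotropin beta subunit (tshba), the shared glycoprotein hormone alpha subunit (cga) and both somatolactins (smtla and smtlb). Each was taken as the entry with exactly that symbol, which gave 7 of 47048 entries in the deposited count table, and 1 suffixed entry, tshba_1, is shown apart. The genes were chosen with the difference between FBSA and the control already known, so their values in comparisons that involve the FBSA libraries are descriptions and carry no test.

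The series examined the developmental toxicity of 4 PFAS, and RNA was sequenced from 15 pools of 10 whole embryos, 3 pools per group. All embryos were Tropical 5D wild-type zebrafish (Danio rerio), had their chorions removed at 4 hours post fertilization (hpf), and were sampled at 48 hpf. Exposure started at 8 hpf, was static, and used a nominal 47 uM of 1 compound. FBSA is perfluorobutane sulfonamide, PFBS the matching sulfonic acid, PFPeA perfluoropentanoic acid and 42FTS a fluorotelomer sulfonic acid. The Control group received 0 uM, and every group, Control included, carried 0.5% methanol. A perfluorobutyl chain is common to all 4 molecules. PFBS, PFPeA and 42FTS are acids, with a sulfonic acid, a carboxylic acid and a sulfonic acid behind an ethyl spacer, whereas FBSA has a sulfonamide in place of the acid group of PFBS.

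The anterior pituitary, or adenohypophysis, secretes a small set of peptide hormones, each made by its own cell type and each under the control of factors from the hypothalamus. In freshwater fish, prolactin is best known as a hormone of ion retention: it acts on ionocytes of skin and gill, and hypothalamic dopamine inhibits its release. Its receptors signal through JAK2 and STAT5, and the signal induces its own inhibitors of the CISH and SOCS family. Growth hormone and the somatolactins belong to the same hormone family as prolactin, and somatolactin is known from fish. Lactotropes and the cells that make proopiomelanocortin are among the first hormone cells to appear in the zebrafish pituitary.

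Libraries held between 24249287 and 32686343 reads in genes. Control 3 and 42FTS 2 had the fewest, and also the largest share of unaligned reads, 9.92% and 9.94%, where the other 13 had 6.32% to 6.73%. Levels are CPM, edgeR's library-scaled counts over the tested genes, after TMM (trimmed mean of M-values) scaling of the libraries. At these depths, 3 counts, the limit that a count of 0 allows, correspond to 0.0893 to 0.120 CPM per library. A pituitary gland is a very small part of a whole embryo, and the 7 genes together summed to 6.49 to 7.22 CPM in the control libraries. In such pools a change in the number of hormone cells and one in RNA per cell cannot be told apart. The labels do not say whether pools within a group derive from different clutches, and p-values here cover only how these pools vary, which may be technical.

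Prolactin was the member that stood apart. In Control 1, 2 and 3 prl was at 3.61, 3.08 and 2.77 CPM, from 118, 101 and 69 reads. In FBSA 1, 2 and 3 it was at 15.3, 13.2 and 15.6 CPM, from 483, 422 and 500 reads. All 3 FBSA libraries lay above all 12 others, the highest of which was 42FTS 2 at 5.66 CPM. The mean was 14.7 ± 1.31 CPM in FBSA and 3.15 ± 0.425 CPM in Control (SD, n = 3 per group), a fitted difference of 2.22 on the log2 scale (SE 0.18, 95% confidence interval 1.83 to 2.61), or 4.65-fold. Leaving out 1 library at a time moved this difference between 2.13 and 2.33. Because prl was chosen on this contrast, the interval is a description and no test.

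In the 3 acids prl was closer to the control level than to that of FBSA. In PFBS a, 2 and b it was at 4.12, 3.81 and 4.32 CPM, where the letters mark a pair of columns that share a name in the count table. In PFPeA 1, 2 and 3 it was at 3.89, 2.91 and 3.92 CPM, and in 42FTS 1, 2 and 3 at 3.60, 5.66 and 4.05 CPM. By group mean the order was Control, PFPeA (3.58 ± 0.577 CPM), PFBS (4.08 ± 0.257 CPM), 42FTS (4.44 ± 1.08 CPM) and FBSA. Each neighbouring pair in that order overlapped except 42FTS and FBSA. FBSA was above PFBS by 1.85, above PFPeA by 2.04 and above 42FTS by 1.73 on the log2 scale (SE 0.18 each).

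The authors' deposited transcript abundances gave the same order of groups for prl. In TPM, which scales reads by transcript length and by depth, FBSA libraries were at 14.8, 13.7 and 15.1 and Control libraries at 3.80, 3.10 and 3.22, with means of 14.5 ± 0.731 and 3.37 ± 0.374 TPM. The acids had means of 4.20 ± 0.556 (PFBS), 3.75 ± 0.658 (PFPeA) and 4.59 ± 0.995 TPM (42FTS). The authors' deposited table listed log2 ratios to the control of 2.16 for FBSA, 0.42 for 42FTS, 0.33 for PFBS and 0.18 for PFPeA. That table holds genes changed by FBSA, the contrast by which the members were chosen, so being listed is a description and no test. Of the 7 members, prl was the 1 among its 1909 genes, where the count table has 47048 entries. These abundances come from the same libraries, so they are not an independent measurement.

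**Figure D1:**
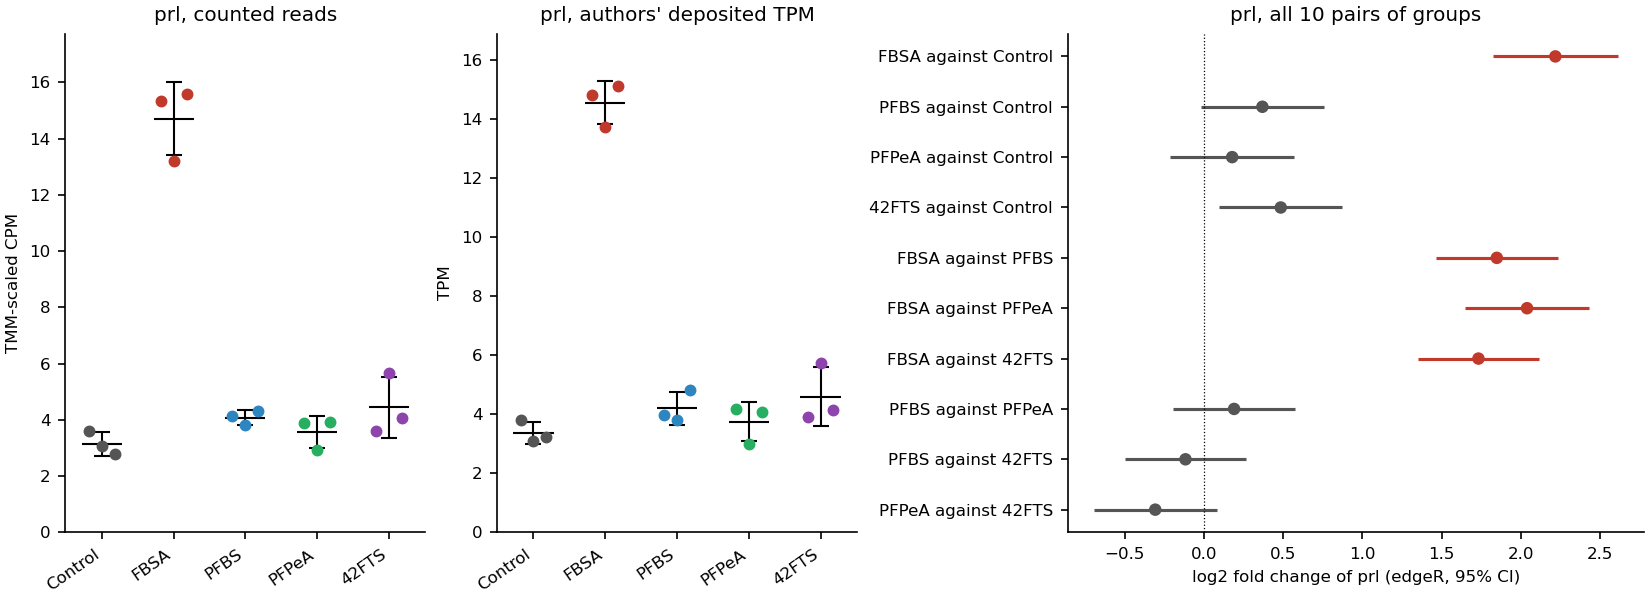
Level of prl by library in TMM-scaled CPM (left) and in the authors' deposited TPM (middle), with points for libraries and bars for mean and SD (n = 3 per group), and its log2 fold change with 95% confidence interval for all 10 pairs of groups (right, red where FBSA is in the pair). FBSA libraries sit between 13.2 and 15.6 CPM, and the other 12 between 2.77 and 5.66 CPM.

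The acids were compared with the control and with each other by edgeR's quasi-likelihood test, with Benjamini-Hochberg adjustment over 23874 genes. The control libraries also entered the contrast by which the members were chosen, while the acid libraries did not. For prl, 42FTS was above Control by 0.49 on the log2 scale (95% confidence interval 0.10 to 0.87), with an unadjusted p of 0.0179 from edgeR that did not survive adjustment (adjusted p = 0.997). The difference was 0.28 without 42FTS 2, and 0.20 without both 42FTS 2 and Control 3. PFBS was above Control by 0.37 (-0.02 to 0.76, edgeR adjusted p = 0.999), and although all 3 PFBS libraries lay above all 3 controls the difference did not pass. How many of all genes separate in this way was not computed. PFPeA was above Control by 0.18 (-0.21 to 0.57, edgeR adjusted p = 0.988).

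Between acids at the matched dose, prl differed by 0.19 for PFBS against PFPeA (-0.20 to 0.58), by -0.12 for PFBS against 42FTS (-0.50 to 0.27) and by -0.31 for PFPeA against 42FTS (-0.69 to 0.08). Their edgeR adjusted p-values were 0.998, 0.996 and 0.772 over all genes tested. The sign for PFBS against 42FTS turned without 42FTS 2, to 0.09. Acids that differ by a carboxylic or sulfonic head group, or by an ethyl spacer, thus did not differ in prl by more than the test could tell from the spread of the pools. The intervals, which reach from -0.69 to 0.58 on the log2 scale, do not show that the acids act alike.

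Of the 7 members, 5 passed the filter on low counts and were tested, while smtla and smtlb were not. The members were chosen on FBSA against Control, so no call of a member is given there. In that contrast 5.28% of all genes tested were called higher and 4.25% lower, at a threshold of 0.05 on the adjusted p. Without FBSA 2 the calls over all genes went from 2274 to 1020, and without Control 1, 2 or 3 to 1296, 1309 or 1430. No member passed in PFBS against Control, where 0% of all genes tested were called, in PFPeA against Control (0%) or in 42FTS against Control (0%). The same held for PFBS against PFPeA (0%), PFBS against 42FTS (0%) and PFPeA against 42FTS (0%). At an unadjusted edgeR p under 0.05 the count was 1 for 42FTS against Control and 0 in the other 5 comparisons, and DESeq2 called 0 members in all 6, beside 6 to 19 genes over the whole table. DESeq2 gave an adjusted p to 4 members in PFPeA against Control, 5 in PFBS against PFPeA and 6 in PFBS against Control. In the remaining comparisons it gave an adjusted p to all 7. Members without an adjusted p could not be called.

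Growth hormone was the member with the lower level in FBSA. The gh1 gene was at 0.551, 0.792 and 0.562 CPM in Control 1, 2 and 3, from 18, 26 and 14 reads. In FBSA 1, 2 and 3 it was at 0.159, 0.250 and 0.374 CPM, from 5, 8 and 12 reads. The FBSA libraries lay below every Control and every PFPeA library, and overlapped those of PFBS (0.346 to 0.666 CPM) and 42FTS (0.179 to 0.642 CPM). How many of all genes separate in this way was not computed. The fitted difference was -1.27 on the log2 scale (SE 0.52), and it rests on few reads. PFPeA had the highest mean, 0.782 ± 0.259 CPM, and its libraries overlapped the control (log2 difference 0.29, edgeR adjusted p = 0.991). PFBS and 42FTS differed from Control by -0.41 and -0.46 (edgeR adjusted p = 0.999 and 0.997).

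The pomca gene encodes the precursor of adrenocorticotropic and melanocyte-stimulating hormones. It was at 2.39, 2.13 and 2.17 CPM in Control 1, 2 and 3 and at 3.02, 3.32 and 3.37 CPM in FBSA 1, 2 and 3, a difference of 0.54 on the log2 scale (SE 0.22). The acids covered much the same range as FBSA, with 1.95, 2.95 and 3.09 CPM in PFBS a, 2 and b, 2.47, 2.85 and 3.67 CPM in PFPeA, and 3.09, 2.57 and 3.50 CPM in 42FTS. All libraries of FBSA, PFPeA and 42FTS lay above all 3 controls, and those of PFBS did not. These comparisons share the same 3 controls, so they are not separate observations. The share of all genes whose libraries separate in this way was not computed, here or for the other members. Neither PFPeA (0.42, SE 0.22, edgeR adjusted p = 0.977) nor 42FTS (0.46, SE 0.22, edgeR adjusted p = 0.997) passed the test against Control. FBSA exceeded PFPeA by 0.11 and 42FTS by 0.08 on the log2 scale (SE 0.22 each).

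Thyrotropin is a dimer of the alpha subunit from cga, which the gonadotropins share, and a beta subunit from tshba. The cga gene was at 0.398, 0.457 and 0.522 CPM in Control 1, 2 and 3 and at 0.825, 0.626 and 0.873 CPM in FBSA 1, 2 and 3. FBSA lay above all libraries of Control, PFBS and 42FTS, but PFPeA 1, at 0.772 CPM, reached into its range. The difference between FBSA and Control was 0.76 on the log2 scale (SE 0.42). The acids differed from Control by -0.01 (PFBS), 0.17 (PFPeA) and -0.03 (42FTS), with edgeR adjusted p-values of 0.999, 0.994 and 0.999.

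The tshba gene scattered more widely than cga. Control 1, 2 and 3 gave 5, 0 and 12 reads, and FBSA 1, 2 and 3 gave 16, 16 and 12. The FBSA mean of 0.461 ± 0.0753 CPM overlapped Control 3, and the difference of 1.18 on the log2 scale (SE 0.89) became 2.53 without Control 3 and 0.57 without Control 2. Lowest was 42FTS, with 3, 1 and 5 reads, below all libraries of PFBS, which had 6, 18 and 10. That pair differed by 1.82 on the log2 scale (-0.25 to 3.89, edgeR adjusted p = 0.988). The suffixed entry tshba_1 held 3 reads in all over Control and 15 over FBSA (1, 6 and 8), and reads could be split between it and tshba, so both values are uncertain.

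The somatolactins were close to the limit of detection outside FBSA, and smtla also in FBSA 3. Over the 3 control libraries, smtla had 5 reads (4, 0 and 1) and smtlb had 2 (0, 1 and 1). In FBSA 1, 2 and 3, smtla had 8, 15 and 3 reads and smtlb had 20, 5 and 8. Summed over libraries and scaled, smtla was 4.92 times the control (exact 95% interval 1.86 to 16.4) and smtlb 15.6 times (3.99 to 134). These intervals cover counting error only and not the spread between pools. The genes were chosen on this contrast, so the intervals are descriptions and no test. The authors' deposited estimated counts were a median of 0.496 to 0.514 times the reads counted in 13 libraries, so the intervals may be too narrow. Each median was taken over the 1600 to 1662 genes of the authors' deposited table with at least 50 reads in that library. All FBSA libraries of smtlb lay above the 3 controls, while FBSA 3 of smtla, with 3 reads, lay within them. Each acid held 3 to 5 reads of smtla and 3 to 6 of smtlb in all. The highest single library among the acids was 42FTS 2, with 5 reads of smtlb. Scaled, that is 0.201 CPM, above the 0.157 CPM of FBSA 2.

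**Figure D2:**
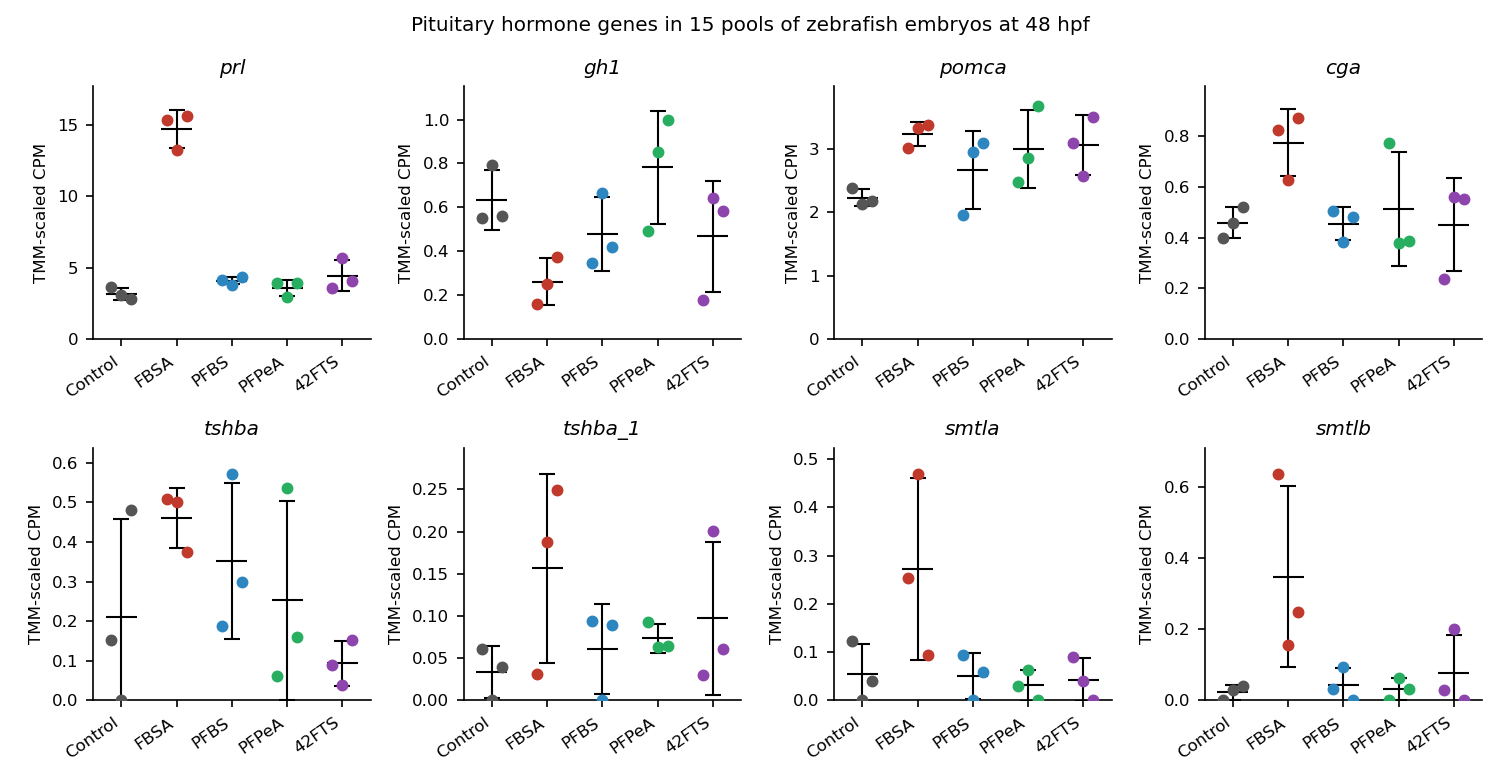
TMM-scaled CPM of the 7 hormone genes and of the suffixed entry tshba_1 in each library (points), with the mean and SD of each group (bars, n = 3) and an axis of its own for each gene. FBSA is at 14.7 CPM for prl against 3.15 CPM in Control, and at 0.261 against 0.635 CPM for gh1, while pomca in FBSA (3.23 CPM) lies close to 42FTS (3.05 CPM).

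Markers of other cell types differed between FBSA and Control as well. Of 8 neuronal markers 6 fell by edgeR, with a summed level of 2058 to 2255 CPM in FBSA against 2410 to 2441 in Control. None rose by edgeR or DESeq2, but 1, elavl3, named after its value was seen, was higher at an unadjusted edgeR p under 0.05. It was at 1170 to 1198 CPM in FBSA against 1088 to 1095 in Control. All 4 tested of 5 hatching gland markers rose (1826 to 2150 against 1176 to 1268 CPM), as did 2 of 5 heart markers (145 to 151 against 98.9 to 104 CPM) and 2 of 4 liver markers (2023 to 2525 against 1739 to 1795 CPM). Of the other lists, 1 of 4 lens and 1 of 5 epidermis markers rose, and 0 of 6 muscle and 0 of 3 tested erythrocyte markers passed. Their sums ran from 2442 to 2904 CPM in FBSA and 2412 to 2660 in Control for lens, and from 6078 to 8842 against 5755 to 10819 for epidermis. For muscle they ran from 43689 to 49060 against 43567 to 44431 CPM, and for erythrocytes from 939 to 1615 against 935 to 1394 CPM. No marker was at 0 over the libraries of a group, and the part of these differences in the hormone levels was not tested. In PFBS, PFPeA and 42FTS against Control 0 of 39 tested markers passed by edgeR or DESeq2, and 2, 1 and 0 had an unadjusted edgeR p under 0.05. For muscle and erythrocytes in FBSA, DESeq2 called 0 and 0 had such an unadjusted p.

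Around the hormones, 167 genes of the pituitary axis were followed, from hypothalamic signals to target tissues. Of these, 160 matched an entry, 2 of them by a synonym, and 119 were tested. In FBSA against Control 18 rose and 4 fell, in all 18.5% of those tested, where 5.28% of all genes rose and 4.25% fell. Their median difference was 0.04 on the log2 scale, and that of all genes 0.01. The lists were chosen with earlier results of these data known, so these shares are not independent evidence. In PFBS, PFPeA and 42FTS against Control 0 of the 119 passed by edgeR or DESeq2, and 2, 9 and 6 had an unadjusted edgeR p under 0.05.

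**Figure D3:**
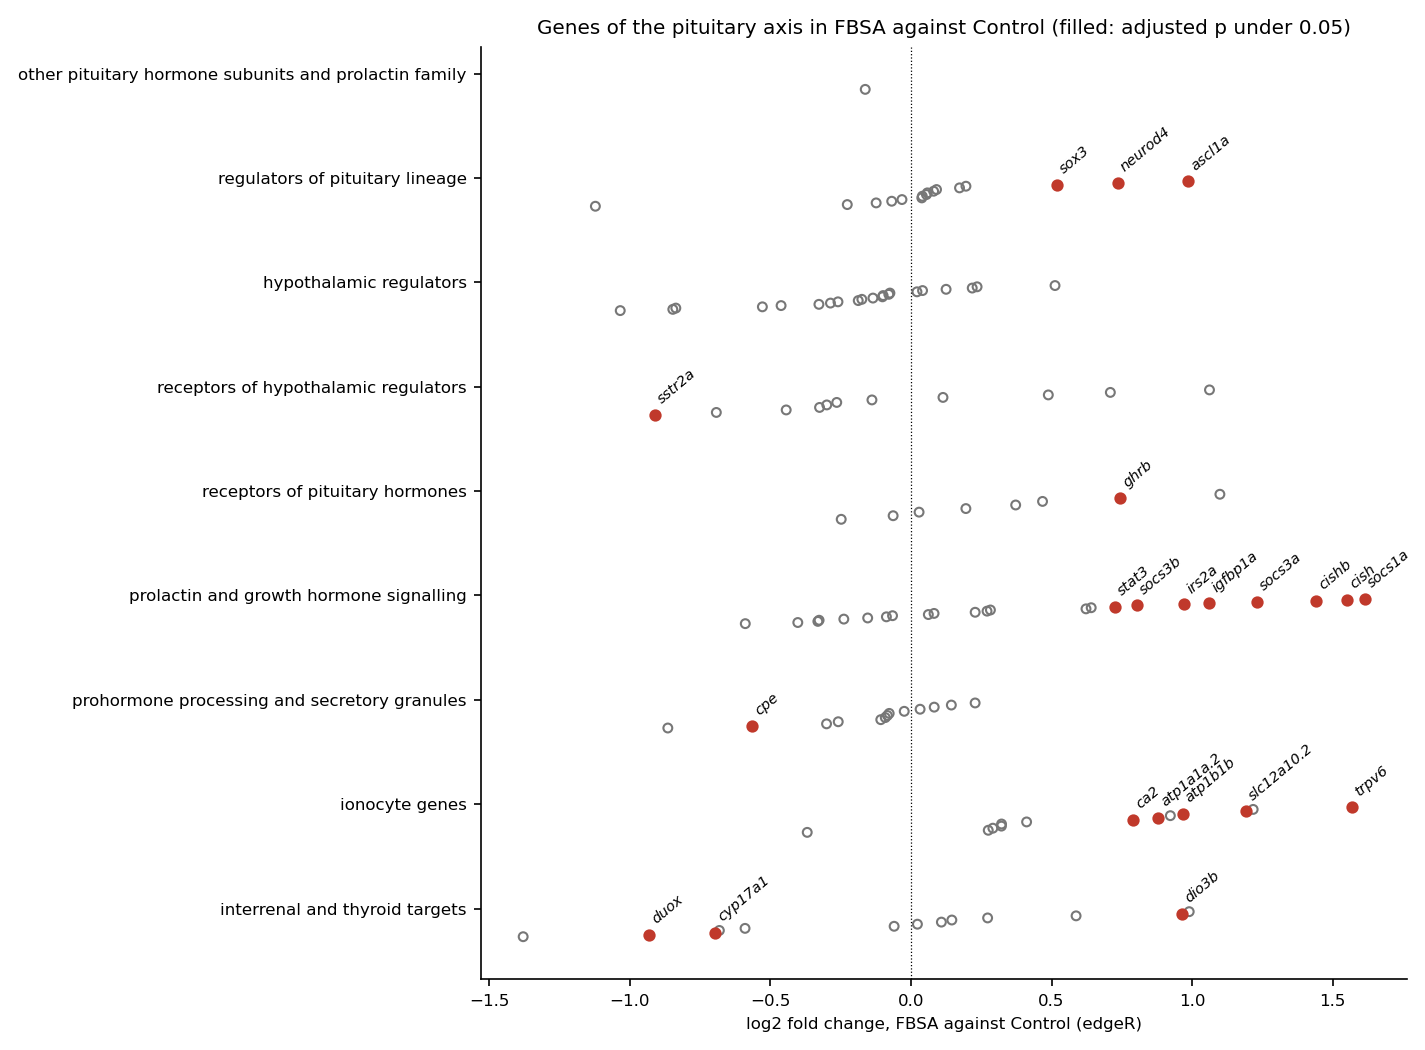
Log2 fold change in FBSA against Control (x axis) of the 119 tested genes of the pituitary axis, by list (rows). Filled red points with names are the 22 genes past the edgeR threshold of 0.05 on the adjusted p, 18 to the right of 0 and 4 to the left, and open points are the others.

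Of 16 tested transcription factors that regulate pituitary lineages, 3 rose in FBSA by edgeR and by DESeq2, and 0 fell by either or were lower at an unadjusted edgeR p under 0.05. The neurod4 gene rose by 0.74 (SE 0.12, edgeR adjusted p = 0.00224), ascl1a by 0.99 (SE 0.20, adjusted p = 0.00945) and sox3 by 0.52 (SE 0.10, adjusted p = 0.00595) on the log2 scale. All 3 also act widely in the embryonic nervous system. FBSA libraries ran from 134 to 157 CPM for neurod4, 63.3 to 114 for ascl1a and 197 to 272 for sox3, above all 12 other libraries in each case. The ascl1a call was lost without both Control 3 and 42FTS 2 (edgeR adjusted p = 0.0531) and with FBSA and Control fitted alone (0.0875). The POU factor pou1f1, which lactotropes, somatotropes and thyrotropes require, was too low to test, at 0 to 0.249 CPM over the 15 libraries.

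Other hormone genes gave little signal at this age. The second proopiomelanocortin gene, pomcb, was at 0.328 ± 0.0430 CPM in Control and 0.294 ± 0.129 CPM in FBSA (log2 difference -0.16, edgeR adjusted p = 0.899). The prolactin paralogue prl2 reached at most 0.222 CPM in any library. The gonadotropin beta subunits lhb and fshb stayed at or under 0.0322 and 0.0306 CPM, below the limit that a count of 0 allows. The symbol tshbb, also listed, matched no entry.

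Of 21 tested hypothalamic regulators, which include neuropeptides and enzymes of dopamine synthesis, 0 passed the edgeR test in FBSA. At an unadjusted edgeR p under 0.05 the count was 4, and DESeq2 called 1, adcyap1b, named after its value was seen. The list of receptors for such signals had 11 tested genes, and it also held the glucocorticoid receptor gene nr3c1. Of these, the somatostatin receptor gene sstr2a fell by 0.91 on the log2 scale (SE 0.24, edgeR adjusted p = 0.0268). It was at 2.26, 3.23 and 2.49 CPM in Control and at 1.52, 1.38 and 1.34 CPM in FBSA. Its call was lost without Control 2, Control 3, FBSA 2 or FBSA 3, with edgeR adjusted p-values of 0.0522 to 0.119, and also with FBSA and Control fitted alone (0.0811) and without both Control 3 and 42FTS 2 (0.0663). PFPeA 1, at 1.24 CPM, lay below all 3 FBSA libraries. Acid libraries also lay below Control, at 1.84 to 2.22 CPM in PFBS, 1.24 to 2.09 in PFPeA and 1.37 to 1.69 in 42FTS. For sstr2a, PFBS, PFPeA and 42FTS differed from Control by -0.37, -0.62 and -0.76 on the log2 scale. None of the acids passed (edgeR adjusted p = 0.999, 0.955 and 0.997), and lower sstr2a was thus not particular to FBSA. Of 13 tested genes for prohormone processing and secretory granules, cpe, the carboxypeptidase that trims peptide hormones, fell by 0.57 (SE 0.10, edgeR adjusted p = 0.00267). It was at 51.6, 46.9 and 48.0 CPM in Control and at 37.0, 29.3 and 32.7 CPM in FBSA, below all 12 other libraries. Neurons express cpe too. In the same libraries 6 of 8 neuronal markers fell, while elavl3 was higher (0.12 on the log2 scale, edgeR adjusted p = 0.0911) and snap25b did not pass. The part of neurons in the decrease of cpe was not tested.

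The receptors differed from one another. Prolactin receptor prlra was at 4.10, 6.06 and 5.42 CPM in Control and at 5.62, 6.07 and 6.14 CPM in FBSA, a log2 difference of 0.20 (SE 0.18, edgeR adjusted p = 0.562). The second prolactin receptor gene, prlrb, was too low to test, at 0.0401 to 0.603 CPM over all libraries. Growth hormone receptor ghrb rose in FBSA by 0.74 (SE 0.12, edgeR adjusted p = 0.00168), from 11.2, 11.2 and 10.6 CPM in Control to 17.7, 17.1 and 20.6 CPM. The highest other library of ghrb was 42FTS 1 at 14.4 CPM. Its paralogue ghra, from 0.0305 to 0.367 CPM in Control and 0.159 to 0.967 CPM in FBSA, did not pass (1.1, SE 1.1, edgeR adjusted p = 0.604).

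Among genes that carry or restrain the signal of prolactin and growth hormone receptors, 8 of 23 tested rose in FBSA by edgeR and 0 fell. DESeq2 called 10 higher and 1 lower, and 12 were higher and 2 lower at an unadjusted edgeR p under 0.05. The gene DESeq2 called lower, named after its value was seen, was jak2a, which encodes a JAK2 kinase. Its level was 42.6 to 50.2 CPM in Control and 35.1 to 37.6 CPM in FBSA, a log2 difference of -0.33 (SE 0.11, edgeR adjusted p = 0.0740). Listed genes that did not pass, named after their values were seen, include stat5a, stat5b, socs2 and igf1. They differed by 0.08 (SE 0.62), -0.07 (SE 0.16), 0.64 (SE 0.24) and -0.59 (SE 0.43), with edgeR adjusted p-values of 0.959, 0.864, 0.110 and 0.450. The largest increases were those of 3 inhibitors of cytokine receptor signalling: socs1a rose by 1.61 (SE 0.34), cish by 1.55 (SE 0.21) and cishb by 1.44 (SE 0.25) on the log2 scale. Their edgeR adjusted p-values were 0.00819, 0.000406 and 0.00283. These genes answer to many cytokines, not to prolactin and growth hormone alone. The level of cish was 5.14, 8.29 and 7.19 CPM in Control and 22.7, 18.4 and 19.3 CPM in FBSA, and its highest level elsewhere was 10.3 CPM in 42FTS 3. The level of cishb was 0.857, 1.13 and 1.16 CPM in Control and 3.62, 2.63 and 2.31 CPM in FBSA. For socs1a, Control was at 0.979, 1.31 and 1.2 CPM and FBSA at 4.19, 2.72 and 3.80 CPM, and PFPeA 1, at 2.72 CPM, was as high as FBSA 2 to 3 digits.

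The other 5 that passed, named after their values were seen, were socs3a, socs3b, stat3, irs2a and the insulin-like growth factor binding protein gene igfbp1a. PFPeA 1 lay above FBSA 1 for igfbp1a (30.5 against 24.5 CPM) and for socs3a (9.24 against 8.76 CPM). It also lay above FBSA 1 and FBSA 3 for socs3b (30.2 against 26.1 and 20.5 CPM), and above FBSA 3 for irs2a (19.3 against 18.8 CPM). For stat3 all 3 FBSA libraries lay above the 12 others. The call of igfbp1a held in all 21 alternative settings. That of irs2a was lost without Control 2, Control 3 or FBSA 2 (edgeR adjusted p 0.0669 to 0.109), and that of stat3 without any 1 control or FBSA 2 (0.0680 to 0.0822). The socs3a call was lost without any 1 control, FBSA 2 or FBSA 3 (0.0763 to 0.120). The socs3b call was lost without any 1 control, FBSA 1, FBSA 2, PFBS a, PFBS 2 or 42FTS 3 (0.0538 to 0.179). Without both Control 3 and 42FTS 2, the calls of irs2a (0.0754), stat3 (0.0782), socs3a (0.102) and socs3b (0.0867) were lost. With FBSA and Control fitted alone, those of irs2a (0.0689), stat3 (0.0987) and socs3b (0.0569) were lost, and with no filter on low counts those of socs3a (0.0549) and socs3b (0.0759), each by edgeR adjusted p.

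Ionocytes are the skin cells that take up ions from the water. Of 13 tested ionocyte genes, 5 rose in FBSA by edgeR and by DESeq2, with a median of 0.79 over the list on the log2 scale against 0.01 for all genes. None fell by either tool, and 0 were lower at an unadjusted edgeR p under 0.05. Earlier results of these data were known when the list was chosen, so its count is not independent evidence. The calcium channel gene trpv6 rose by 1.57 (SE 0.36, edgeR adjusted p = 0.0138), from 1.59, 1.13 and 1.93 CPM in Control to 4.67, 3.32 and 5.77 CPM. Its call was lost without Control 2 (1.39, edgeR adjusted p = 0.0652). The sodium-chloride cotransporter gene slc12a10.2, which marks the ionocytes that prolactin is known to promote in zebrafish, rose by 1.19 (SE 0.25, edgeR adjusted p = 0.00739). It was at 2.26, 2.50 and 1.77 CPM in Control and at 4.38, 4.48 and 6.11 CPM in FBSA, above its highest other library, 42FTS 1 at 3.06 CPM. The sodium pump subunit gene atp1b1b rose by 0.97 (SE 0.06, edgeR adjusted p = 1.14e-06), from 54.2 to 56.6 CPM in Control to 103 to 112 CPM. The pump subunit atp1a1a.2 and the carbonic anhydrase ca2 were the others, at 187 to 196 and 215 to 267 CPM in FBSA against at most 116 and 152 CPM in all other libraries. Among the listed genes that did not pass, named after their values were seen, were clcn2c and slc4a4b. They differed by 0.32 (SE 0.19, edgeR adjusted p = 0.342) and 0.41 (SE 0.55, edgeR adjusted p = 0.715). Any link between prl and the ionocyte genes was not tested.

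**Figure D4:**
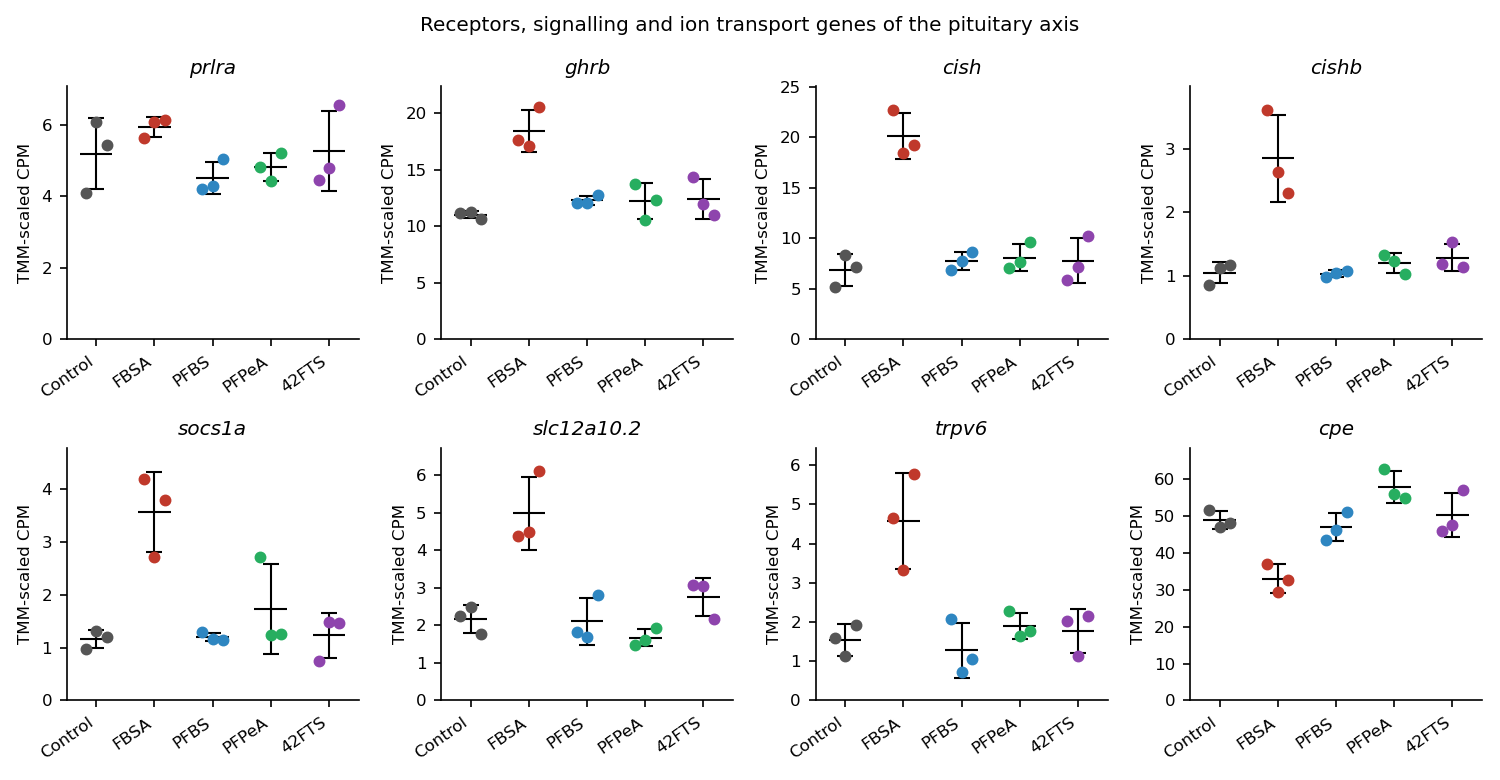
TMM-scaled CPM by library (points) with group mean and SD (bars, n = 3) for 8 genes of receptors, signalling, ion transport and prohormone processing. In FBSA, ghrb, cish, cishb, slc12a10.2 and trpv6 lie above the other 12 libraries and cpe below them, for socs1a PFPeA 1 is level with FBSA 2 at 2.72 CPM, and prlra in FBSA, at 5.62 to 6.14 CPM, overlaps the other groups.

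Genes listed as targets of adrenocorticotropic hormone and thyrotropin gave 1 increase and 2 decreases among 13 tested. In pools of whole embryos, the tissue that their reads came from was not tested. The median over the list was 0.02 on the log2 scale, against 0.01 for all genes. Some listed genes that did not pass are named after their values were seen. Of these, star (0.27), tg (0.59) and fkbp5 (0.99) were higher, and nr5a1a (-1.38), dio1 (-0.59) and dio2 (-0.68) lower. Their edgeR adjusted p-values were 0.164 to 0.302. The genes tpo, slc5a5, cyp11a1 and cyp11a2 were too low to test, and tpo had a mean of 0.165 CPM over all libraries. Steroid hydroxylase gene cyp17a1 fell by 0.70 on the log2 scale (SE 0.11, edgeR adjusted p = 0.00161), from 23.4, 25.8 and 21.4 CPM in Control to 14.7, 12 and 16.9 CPM in FBSA. Thyroid hormone synthesis needs the oxidase duox, which fell by 0.93 (SE 0.20, edgeR adjusted p = 0.0129), from 64.9 to 72.8 CPM in Control to 23.5 to 48.9 CPM in FBSA. Its call was lost without both Control 3 and 42FTS 2 (edgeR adjusted p = 0.0551) and with FBSA and Control fitted alone (0.115). The deiodinase dio3b, which inactivates thyroid hormone, rose by 0.97 (SE 0.20, edgeR adjusted p = 0.00778), from 4.25, 2.59 and 4.09 CPM to 7.24, 7.70 and 6.39 CPM. In each of the 3, the FBSA libraries lay outside the range of the 12 others. Of the 22 axis genes that passed here, 21 are in the authors' deposited table, all with the same sign, and sstr2a is not. That table comes from the same libraries, so the shared signs are not independent evidence.

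The genes whose pattern over the 15 libraries was most like that of prl were found by root mean square distance of log2 CPM, each gene taken relative to its control mean. Among 13270 candidates, with a median distance of 1.06, the 8 closest were slc16a9b (0.379), mcoln3a (0.381), gldc (0.402), slc16a6b (0.420), sst2 (0.424), agt (0.425), cish (0.437) and ftr86 (0.447). Both slc16 genes belong to the monocarboxylate transporter family, mcoln3a encodes an endosomal cation channel, gldc the glycine decarboxylase, agt angiotensinogen and sst2 a peptide of the somatostatin family. All 8 were higher in the 3 FBSA libraries than in the 12 others, which the choice by distance to prl made likely beforehand. They differed in the order within FBSA: prl was lowest in FBSA 2, whereas slc16a9b, mcoln3a, gldc, slc16a6b, sst2, agt and ftr86 were highest there. Like prl, cish was lowest in FBSA 2.

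**Figure D5:**
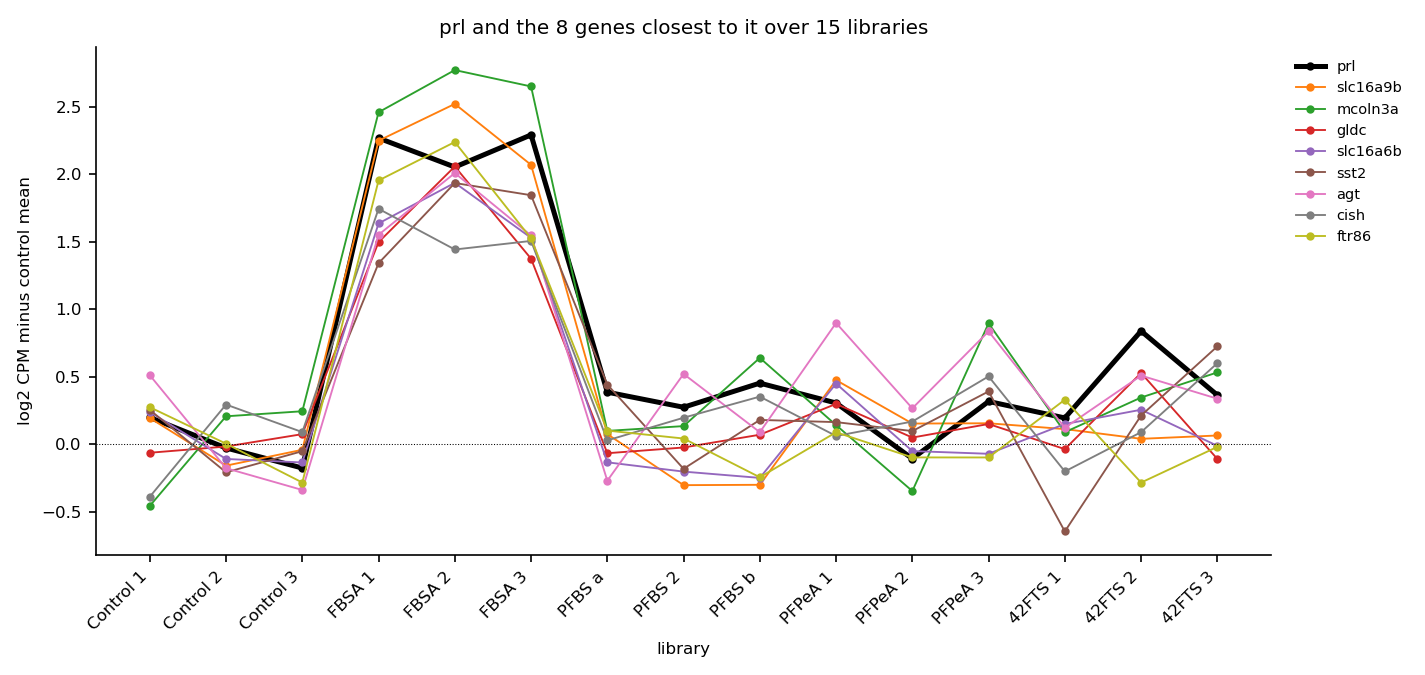
Log2 CPM less the control mean (y axis) in the 15 libraries (x axis) for prl (black) and the 8 genes closest to it by root mean square distance. Lines join the libraries of a gene for reading only. In FBSA, prl dips in FBSA 2 while 7 of the other 8 genes peak there.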

How the data were processed

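Whole-number read counts per gene, not normalized, were made by the authors, and their deposited table holds 15 libraries, a pair of PFBS columns under 1 name (called PFBS a and PFBS b). Per the submitters' processing notes, the build was GRCz11 and the tools were HISAT2, Bowtie2, HTSeq, RSEM and DESeq2. Tool versions, their roles and the use of strand are not given in the sources used here. Overlapping genes could share reads. Per the file headers, the authors' deposited table of genes changed by FBSA also gives TPM, estimated counts (used as a ratio to counted reads) and log2 ratios to the control. Another 30 columns of values per sample or averages were not used. The 5 category lines that name no gene, 33.4% to 36.3% of all reads, stayed out of library sizes and tests.

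The analysis used edgeR 4.0.16 in R 4.3.3 (filterByExpr, trimmed mean of M-values, robust two-sided quasi-likelihood F-test). All 15 libraries entered 1 fit with group as its term, which gives all groups a common spread. Adjustment was Benjamini-Hochberg over 23874 genes, with a threshold of 0.05. An SE is the size of the log2 fold change divided by the square root of F. The analysis code was tested on simulated data, with a limit for passing that was lowered after the first run missed it. That run did not recover all of the differences put in, so a difference that did not pass here may still exist. Alternatives were RLE scaling, DESeq2 1.42.0, no filter, fits of 2 groups, a replicate block, each library left out, and Control 3 with 42FTS 2 left out.

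The members and gene lists were chosen with earlier results of these data known, so a list's count is not independent evidence. Of each axis list, the text names up to 3 genes past the test with the largest increase and up to 3 with the largest decrease, at a mean of at least 1 CPM, with receptors and other hormone genes named by role. Likeness to prl used log2 CPM with a prior count of 2, over genes at a mean of at least 1 CPM whose symbol is no clone name and has no suffix. Synonyms came from RefSeq (GRCz12tu), and no coordinates or sequences were used.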

Additional observations from a re-analysis of the deposited data

How the results depend on the processing

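Under the 21 alternatives no member was called in a comparison of acids with Control or with each other. The calls over all genes in FBSA against Control, 2274 in the main analysis, were 3058 by DESeq2, 855 with the 2 groups fitted alone and 1228 without Control 3 and 42FTS 2, and ran from 1020 to 2274 with 1 library left out. The fit of 2 groups and the fit without Control 3 and 42FTS 2 use fewer libraries. The 4 axis genes that fell became 2 in the fit of 2 groups, 2 without Control 3 and 42FTS 2, 3 to 5 with 1 library left out and 6 by DESeq2, and the 18 that rose ran from 13 to 20 over all alternatives. Of the 22 axis calls, 14 held in every setting. The difference in prl between PFBS and 42FTS, -0.12 on the log2 scale, turned to 0.092 without 42FTS 2 and to 0.083 without Control 3 and 42FTS 2, and its lowest value with 1 library left out was -0.25. The difference in tshba between FBSA and Control, 1.18, ran from 0.57 to 2.53 with 1 library left out and was 2.54 without Control 3 and 42FTS 2. Deviations of libraries with the same number correlated weakly (-0.06 to 0.09), within the range for different numbers (-0.12 to 0.13). Pairs numbered 3 ran from 0.015 to 0.086. With 3 libraries per group, these values cannot exclude that the numbers pair the samples. With the number as a replicate block, in a fit without PFBS, prl differed by 2.22 and 2035 genes were called, and the edgeR adjusted p was 0.0508 for sstr2a, 0.0787 for socs3a and 0.0967 for socs3b. Depth limits the somatolactins, tshba and gh1, whose reads per library were few.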
